A study of Arabidopsis thaliana with 6 samples.

Results

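The MATE (multidrug and toxic compound extrusion) family, also named DTX for detoxification, was described in root tips of Arabidopsis thaliana with and without aluminum (Al). Its members were taken from a list of 53 loci, all of which were found among the 24379 genes of the deposited table. The listed loci include FRD3, TT12, EDS5 and ALF5. A root citrate exporter of the family was not analysed here.

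MATE proteins are membrane transporters of organic molecules. Many of them move these out of the cytosol, either out of the cell or into the vacuole, in exchange for protons or sodium ions, and some stand in chloroplast membranes. In plants they carry flavonoids, alkaloids, hormones, organic acids such as citrate, and precursors of defense compounds. Plants have many more of them than animals do, and many of the genes stand in tandem arrays of close copies. Al ions are toxic to root tips, and citrate and malate released by root transporters bind them.

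RNA was sequenced from 6 samples of WT Col-0 seedlings that were 7 days old, 3 with Al and 3 controls. The treatment was 25 µM AlCl3 for 3 h and the tissue was about 0.5 cm of root tip, though the labels name only Al, the replicate number and roots. All seedlings had the same genotype and were grown in dilute MGRL nutrient solution. The labels do not say whether the replicates were separate cultures, so p-values measure the spread between these samples.

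Expression is given as FPKM, the fragments of a transcript scaled to its length and to the depth of the library. The depth was read from the step that a single fragment makes in low values. It was estimated at 21850000 to 22000000 fragments in Al samples and 21950000 to 22050000 fragments in control samples. It bears on the number of fragments behind a value and not on the spread between samples. ALMT1, which encodes the malate channel of root tips, had 13.1, 15.7 and 17.4 FPKM in Al samples, against 0.47, 0.73 and 0.50 FPKM in control samples, a rise in every Al sample. Of 6 root and root tip markers, 5 reached 1 FPKM in every sample, and the list summed to 38.0 to 40.0 FPKM in Al samples, against 66.7 to 69.4 FPKM in control samples. Of 6 shoot markers, 2 reached 1 FPKM in every sample, and the list summed to 17.9 to 24.2 FPKM in Al samples and 16.0 to 20.6 FPKM in control samples. These 2 were PSBO2, at 9.59 to 12.9 FPKM over all samples, and RBCS1A, at 4.51 to 8.90 FPKM, and neither was called. LHCB2.2, a light-harvesting gene of leaves, had at most 0.05 FPKM in any sample, and the carbonic anhydrase gene CA1 was higher after Al (log2 fold change 1.80). The part of these markers in the results below was not tested. In such bulk samples, fewer cells of a type and less RNA per cell cannot be told apart.

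To ask how the family responded to Al, a fold change was fitted for each gene on the log2(FPKM + 1) scale with limma, which shrinks the variance of each gene toward that of genes at a similar level, with Benjamini-Hochberg adjustment of the p-values over all genes tested. A gene was tested where it reached 1 FPKM in 3 or more of the 6 samples, and 35 of the 53 members did so. The other 18 members were below this filter. After Al, 14 members were higher, 8 were lower and 13 did not pass an adjusted p of 0.05. These counts are 40.0% and 22.9% of the tested members, where 21.3% of the 18463 genes tested were higher and 38.5% were lower, 59.8% in all. The FPKM values of 24 tested members (68.6%) did not overlap between Al and control samples, as was the case for 66.3% of all genes tested. DTX1 and AT4G23030 passed the filter only through the Al samples, so the counts over the tested members are no support for a direction.

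The median log2 fold change of the tested members was 0.17, and that of all genes tested was -0.13. Of the tested members, 22 lay above the median of all genes and 13 lay below it. Without the third control sample the median of the members was 0.048, with 12 members higher and 11 lower. The share of called members that were higher was 63.6% and depended on the settings, among them the scaling between samples. It was 70.8% with median-ratio scaling, which centres the median of all genes, and 50% with TPM scaling, in which each sample sums to the same total. The same share over all called genes was 35.6% as deposited, 51.9% with median-ratio scaling and 29.6% with TPM scaling. No called member changed its sign under any of these scalings.

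**Figure D1:**
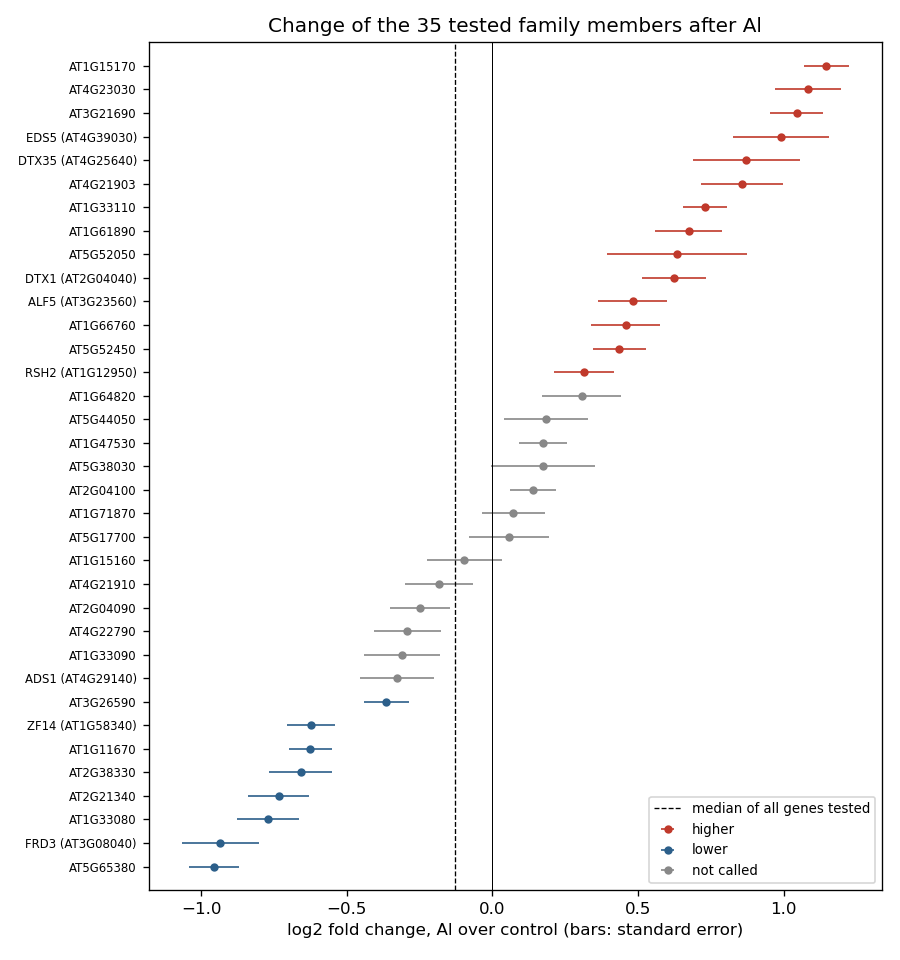
Log2 fold change of each of the 35 tested members, Al over control on the log2(FPKM + 1) scale, with bars for the standard error (3 samples per group), the solid line at no change and the dashed line at the median of all genes tested. The members run from 1.15 for AT1G15170 to -0.96 for AT5G65380, with 14 called higher (red), 8 called lower (blue) and 13 not called (grey).

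A few members held most of the summed level of the family in root tips. The FPKM values of the 53 members summed to 580.4, 545.7 and 520.5 in Al samples, against 502.9, 492.8 and 459.9 in control samples, a mean of 548.9 ± 30.1 in Al samples and 485.2 ± 22.5 in control samples (SD, n = 3 each). The FPKM values of all genes also summed higher after Al, to 680864 to 688427 in Al samples, against 647540 to 659928 in control samples. How much of the higher family sum comes from this scaling was not tested. The 6 highest members of a sample held 59.4% to 64.6% of the family sum in Al samples and 59.5% to 60.4% in control samples. AT1G47530 was the highest member in all 3 Al samples, and AT1G11670 was the highest in all 3 control samples. DTX35 and AT1G15170 ranked 2 and 4 by mean FPKM in Al samples, against 4 and 6 in control samples. AT5G65380 ranked 8 in Al samples and 3 in control samples.

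**Figure D2:**
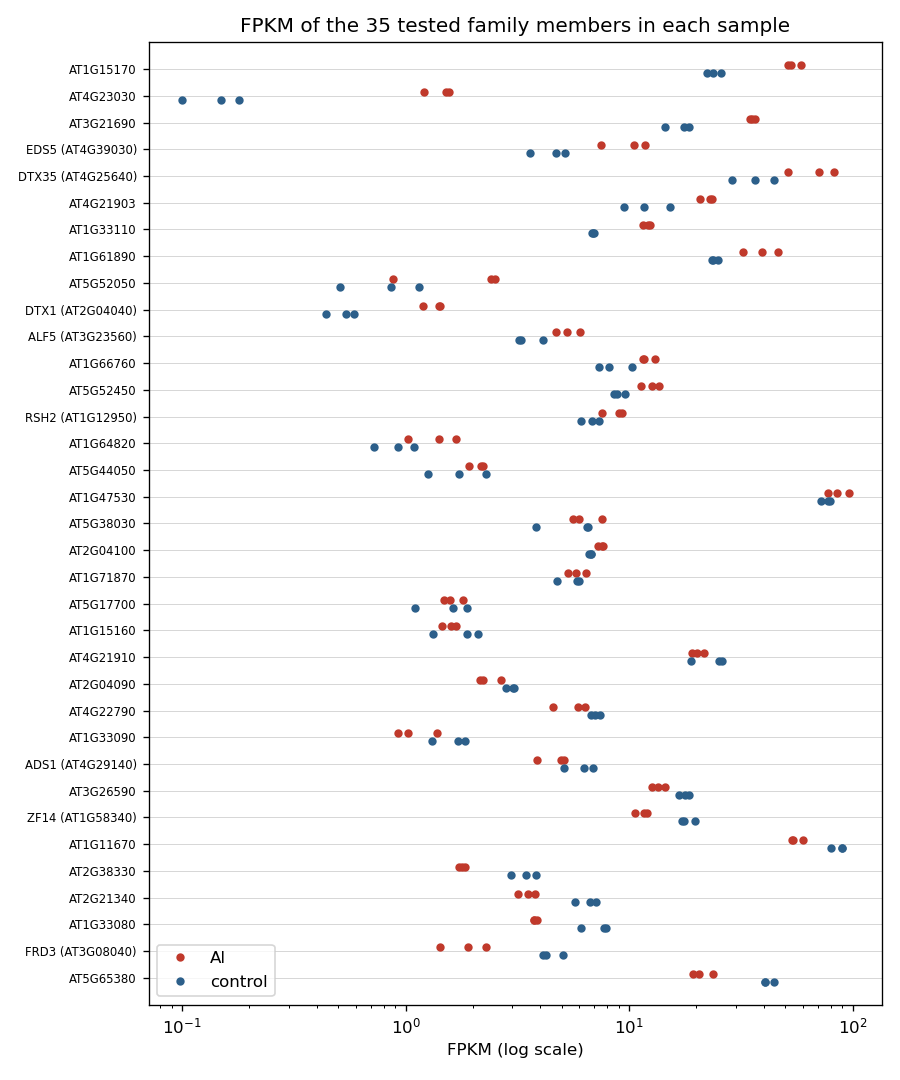
FPKM (log axis) of the 35 tested members in each sample, 3 Al samples (red) above 3 control samples (blue) on each line, ordered by log2 fold change. AT4G23030 has its Al samples at 1.21 to 1.56 FPKM and its control samples at 0.10 to 0.18 FPKM, and AT5G65380 has its Al samples at 19.3 to 23.8 FPKM and its control samples at 40.5 to 44.4 FPKM.

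On the log2(FPKM + 1) scale, the 3 members that rose by at least 1 are AT1G15170, AT4G23030 and AT3G21690, and the largest fall among the tested members was that of AT5G65380. The ratio of mean FPKM, Al over control, does not compress low genes. By this ratio, DTX1 (2.57) and DTX50 (2.31, with overlapping groups) rose more than AT1G15170 (2.27). EDS5 (2.22) rose more than AT3G21690 (2.12), and FRD3 (0.420) fell more than AT5G65380 (0.506). With a size limit of 1 on the log2(FPKM + 1) scale added, 6.45% of all genes tested were higher and 2.88% were lower. The 300 bases before the annotated start of these 4 genes are shown because these genes stand at the ends of the tested members on the log2(FPKM + 1) scale. They are written 5′ to 3′ on the strand of the gene, from the RefSeq annotation of TAIR10.1, with capitals at each match to TTGAC (the core of the W-box, which WRKY transcription factors bind), CGCGT or CACGTG (the G-box) on either strand.
AT1G15170, chr1:5220103-5220402, plus strand: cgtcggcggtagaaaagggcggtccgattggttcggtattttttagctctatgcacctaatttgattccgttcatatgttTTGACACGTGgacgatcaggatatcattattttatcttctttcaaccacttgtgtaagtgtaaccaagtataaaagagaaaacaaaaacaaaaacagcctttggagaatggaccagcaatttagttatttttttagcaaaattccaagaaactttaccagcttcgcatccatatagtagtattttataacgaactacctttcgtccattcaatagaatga
AT4G23030, chr4:12072460-12072759, plus strand: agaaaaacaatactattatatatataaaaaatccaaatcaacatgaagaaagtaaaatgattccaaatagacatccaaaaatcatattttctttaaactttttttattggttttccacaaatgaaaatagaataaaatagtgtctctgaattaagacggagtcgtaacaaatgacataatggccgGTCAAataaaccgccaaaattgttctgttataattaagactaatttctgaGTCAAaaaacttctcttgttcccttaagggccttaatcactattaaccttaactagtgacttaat
AT3G21690, chr3:7638284-7638583, plus strand: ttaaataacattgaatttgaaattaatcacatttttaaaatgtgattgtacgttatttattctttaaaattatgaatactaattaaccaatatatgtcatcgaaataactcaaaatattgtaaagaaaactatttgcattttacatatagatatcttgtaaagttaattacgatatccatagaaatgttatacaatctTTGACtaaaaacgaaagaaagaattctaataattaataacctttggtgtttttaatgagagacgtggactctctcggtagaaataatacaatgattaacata
AT5G65380, chr5:26126561-26126860, minus strand: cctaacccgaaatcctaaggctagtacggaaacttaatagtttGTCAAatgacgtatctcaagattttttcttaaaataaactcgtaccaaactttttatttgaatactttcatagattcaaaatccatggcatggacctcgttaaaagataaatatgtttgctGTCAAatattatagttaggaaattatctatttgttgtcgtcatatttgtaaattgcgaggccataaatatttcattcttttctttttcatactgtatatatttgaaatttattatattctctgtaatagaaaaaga
The stretch before AT1G15170 holds a W-box core that shares 1 base with a G-box, and it overlaps the annotated gene AT1G15165. The stretches before AT4G23030 and AT5G65380 hold 2 W-box cores each, all on the opposite strand and so read as GTCAA, and the stretch before AT3G21690 holds 1. A match is a description of the sequence only.

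AT1G15170 spans bases 5220403 to 5222973 of chromosome 1 (plus strand), has 7 exons and encodes 481 amino acids. It had 52.8, 51.2 and 58.5 FPKM in Al samples, against 22.3, 23.8 and 25.7 FPKM in control samples. Every Al sample was above every control sample, and the mean was 2.27-fold higher after Al. The log2 fold change was 1.15 (SE, the standard error, 0.077, limma adjusted p = 2.91e-06), the largest among the tested members at a pseudocount of 1. Of its transcript, 18.1% of the 50-base stretches are also found in other genes, with the antisense gene AT1G15175 sharing the most. AT1G15175 is not among the genes of the deposited table. Whether the authors' counting used strand is not given in the sources used here, so fragments of both strands may not have been told apart.

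AT4G23030 spans bases 12072760 to 12074580 of chromosome 4 (plus strand), as a single exon that encodes 502 amino acids. It had 1.56, 1.51 and 1.21 FPKM in Al samples, against 0.15, 0.18 and 0.10 FPKM in control samples. The gene was close to its floor of detection in control samples, where 3 fragments correspond to 0.0764 FPKM, and the mean was 9.95-fold higher after Al. The log2 fold change was 1.08 (SE 0.113, limma adjusted p = 4.91e-05) with the pseudocount of 1 and 2.66 with a pseudocount of 0.1, since the scale understates the change of low genes.

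AT3G21690 spans bases 7638584 to 7642389 of chromosome 3 (plus strand) and has 7 exons. Its deposited annotation places it at the vacuolar membrane. It had 36.6, 34.9 and 35.5 FPKM in Al samples, against 18.5, 17.6 and 14.5 FPKM in control samples. The groups did not overlap, and the log2 fold change was 1.05 (SE 0.091, limma adjusted p = 1.48e-05).

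The other members that rose included some with a known substrate or phenotype, among them genes of defense, flavonoid and hormone transport. EDS5 (AT4G39030), which spans bases 18185437 to 18189224 of chromosome 4 (plus strand, 12 exons), encodes a chloroplast envelope transporter that plants need to build up salicylic acid. It had 10.6, 11.8 and 7.5 FPKM in Al samples, against 5.15, 4.70 and 3.59 FPKM in control samples. The groups did not overlap, and the log2 fold change was 0.99 (SE 0.164, limma adjusted p = 0.000777). AT4G39040, which overlaps EDS5 on the other strand, moved the other way. It had 9.47 to 10.6 FPKM in Al samples and 18.7 to 20.7 FPKM in control samples. Of the 50-base stretches of EDS5, 7.4% are also found in other genes, with AT4G39040 sharing the most.

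DTX35 (AT4G25640), also named FLOWER FLAVONOID TRANSPORTER, had 82.9, 70.7 and 51.3 FPKM in Al samples, against 44.7, 36.6 and 28.9 FPKM in control samples. The gene spans bases 13076444 to 13079256 of chromosome 4 (minus strand). Its samples spread widely within each group and still did not overlap. The log2 fold change was 0.87 (SE 0.185, limma adjusted p = 0.00307).

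DTX50 (AT5G52050, chromosome 5, 21138703 to 21140876), a transporter that exports the hormone abscisic acid from cells, had 2.42, 2.51 and 0.88 FPKM in Al samples, against 1.15, 0.51 and 0.86 FPKM in control samples. The third Al sample lay among the control samples. The log2 fold change was 0.63 (SE 0.239, limma adjusted p = 0.0447), and the call was lost without the first or second Al sample (log2 fold changes 0.50 and 0.48, limma adjusted p = 0.137 and 0.149) and without the second control sample or the third (limma adjusted p = 0.143 and 0.0765).

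DTX1 (AT2G04040, chromosome 2, 1334270 to 1336550), a plasma membrane exporter of alkaloids and other toxic compounds, had 1.41, 1.20 and 1.43 FPKM in Al samples, against 0.54, 0.44 and 0.59 FPKM in control samples. All Al samples were above all control samples, with a log2 fold change of 0.62 (SE 0.109, limma adjusted p = 0.00102). Of the 50-base stretches of DTX1, 21.5% are also found in other genes, with the antisense gene AT2G04039 sharing the most. AT2G04039 had 0.86 to 0.91 FPKM in Al samples and 0.40 to 0.55 FPKM in control samples. ALF5 (AT3G23560, chromosome 3, 8453903 to 8456708), which is needed for lateral root formation and for resistance to toxic compounds in the medium, had 5.25, 4.70 and 6.06 FPKM in Al samples, against 4.13, 3.22 and 3.27 FPKM in control samples. Its groups did not overlap either, and its log2 fold change was 0.48 (SE 0.119, limma adjusted p = 0.00692).

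Among the other members that rose, AT4G21903 had a log2 fold change of 0.86, AT1G33110 of 0.73 and AT1G61890 of 0.67. AT1G66760 (0.46) and AT5G52450 (0.43) rose less. In all 5, the FPKM values of the groups did not overlap. AT5G52440, which overlaps AT5G52450 on the other strand, was lower after Al (log2 fold change -0.58). The smallest rise was that of AT1G12950, annotated as root hair specific 2, with a log2 fold change of 0.31 (limma adjusted p = 0.0271). It had 9.34, 9.06 and 7.57 FPKM in Al samples and 7.37, 6.80 and 6.10 FPKM in control samples. Its call was lost without the first or second Al sample (limma adjusted p = 0.0917 and 0.0854) and without the second control sample or the third (limma adjusted p = 0.0646 and 0.0839). The root hair markers COBL9 (SHV2) and EXPA7 were lower after Al, with log2 fold changes of -1.33 and -1.62.

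The 8 members that fell included FRD3 and ZF14, both of which are tied to iron. AT5G65380, which spans bases 26122937 to 26126560 of chromosome 5 (minus strand), had 19.3, 20.5 and 23.8 FPKM in Al samples, against 40.5, 44.4 and 40.8 FPKM in control samples. The log2 fold change was -0.96 (SE 0.086, limma adjusted p = 1.80e-05). FRD3 (AT3G08040, chromosome 3, 2566196 to 2569700), which loads citrate into the xylem so that iron can move to the shoot, had 2.30, 1.91 and 1.43 FPKM in Al samples, against 4.14, 4.23 and 5.05 FPKM in control samples. Its mean FPKM in Al samples was 0.420 of that in control samples, and the log2 fold change was -0.93 (SE 0.132, limma adjusted p = 0.000306). ZF14 (AT1G58340, chromosome 1, 21652988 to 21655439), also named BUSH-AND-CHLOROTIC-DWARF 1 and linked to iron homeostasis, had 12.02, 10.63 and 11.69 FPKM in Al samples, against 19.8, 17.2 and 17.5 FPKM in control samples. Its log2 fold change was -0.62 (SE 0.084, limma adjusted p = 0.000221). In all 3 genes every Al sample was below every control sample.

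AT2G21340 and AT2G38330 are annotated in the deposited table at the chloroplast membrane. AT2G21340 had 3.18, 3.81 and 3.52 FPKM in Al samples, against 6.66, 5.75 and 7.09 FPKM in control samples, and a log2 fold change of -0.73 (SE 0.105, limma adjusted p = 0.000312). AT2G38330 had a log2 fold change of -0.66. Both have an antisense gene, and neither antisense gene fell. AT2G21350, on the other strand of AT2G21340, was not called (log2 fold change 0.28, limma adjusted p = 0.110). AT2G38340 was higher, at 1.09 to 1.21 FPKM in Al samples against 0.21 to 0.33 FPKM in control samples. Of the 50-base stretches of AT2G21340, 14.9% are also found in other genes, with AT2G21350 sharing the most.

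The remaining members that fell were AT1G33080 (log2 fold change -0.77), AT1G11670 (-0.63) and AT3G26590 (-0.36). The call of AT3G26590 was lost with median-ratio scaling (log2 fold change -0.23, limma adjusted p = 0.0535). The root tip markers PLT1, a regulator of the root stem cell niche, and SMB, a regulator of the root cap, were also lower after Al, with log2 fold changes of -0.85 and -0.75. WOX5, another marker of the same list, was below the filter and was not lower. Its mean was 0.78 FPKM in Al samples and 0.73 FPKM in control samples, and its groups overlapped. In the fit without the filter WOX5 was not called (limma adjusted p = 0.776). SCR, an endodermis regulator, was not called (-0.12, limma adjusted p = 0.124). The part of these cell types in the falls was not tested.

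Of the 13 members that did not pass, AT1G47530 had the highest level of the family after Al. It is annotated at the vacuolar membrane and had 96.0, 85.1 and 77.7 FPKM in Al samples, against 78.9, 72.1 and 77.4 FPKM in control samples. The groups overlapped and the log2 fold change was 0.17 (SE 0.083, limma adjusted p = 0.0974). It passed with median-ratio scaling (0.32, limma adjusted p = 0.00689) and without the third Al sample (0.25, limma adjusted p = 0.0259).

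ADS1 (AT4G29140), named for the disease susceptibility of plants in which it is activated, and AT4G22790, annotated to the carbon dioxide response of stomata, lay just above the threshold and passed it in 5 and 3 of 14 alternatives. ADS1 had 3.89, 4.96 and 5.12 FPKM in Al samples, against 6.28, 6.91 and 5.11 FPKM in control samples (log2 fold change -0.33, limma adjusted p = 0.0517). AT4G22790 had 4.57, 6.37 and 5.94 FPKM in Al samples, against 6.74, 7.40 and 7.04 FPKM in control samples (-0.29, limma adjusted p = 0.0529). ADS1 overlapped between the groups and AT4G22790 did not. The other 10 ranged from -0.31 for AT1G33090 to 0.31 for AT1G64820. They were AT2G04090, AT2G04100, AT1G15160, AT4G21910, AT5G38030, AT5G17700, AT5G44050 and AT1G71870 beside these.

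The 18 members below the filter were low in root tips, and 12 of them had under 0.3 FPKM in every sample. TT12 (AT3G59030), which loads proanthocyanidin precursors into the vacuole of seed coat cells, had 0.03, 0.03 and 0.00 FPKM in Al samples, against 0.11, 0.03 and 0.08 FPKM in control samples, all near or below the 0.0791 FPKM that correspond to 3 fragments. AT1G71140, AT1G23300 and AT5G10420 were listed at 0 in all 3 control samples. AT1G71140 had 0.44, 0.80 and 0.57 FPKM in Al samples. The last pair reached at most 0.03 FPKM in any sample. The actin gene ACT2 was listed at 0 in no sample.

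When every gene above 0 in any sample was fitted, 16 of the 53 members were higher and 9 were lower, where 17.6% and 30.4% of 23812 genes were called. DTX50 was no longer called in this fit. Among the members it brought in, AT1G71140 had limma adjusted p = 0.000465, and no fold can be given against samples listed at 0. AT2G04070, a close copy of DTX1, had 0.76, 0.67 and 0.60 FPKM in Al samples, against 0.30, 0.23 and 0.36 FPKM in control samples (limma adjusted p = 0.00250). AT3G23550, the neighbour of ALF5 and annotated to defense against oomycetes, had 0.79, 1.06 and 1.09 FPKM in Al samples, against 0.49, 0.51 and 0.63 FPKM in control samples (limma adjusted p = 0.00891). Its antisense gene AT3G23540 had 27.1 to 29.1 FPKM in Al samples and 26.7 to 27.8 FPKM in control samples. AT1G15180 was the member this fit added to those that fell, with 0.19, 0.21 and 0.23 FPKM in Al samples, against 0.92, 0.93 and 1.16 FPKM in control samples (limma adjusted p = 0.000119).

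**Figure D3:**
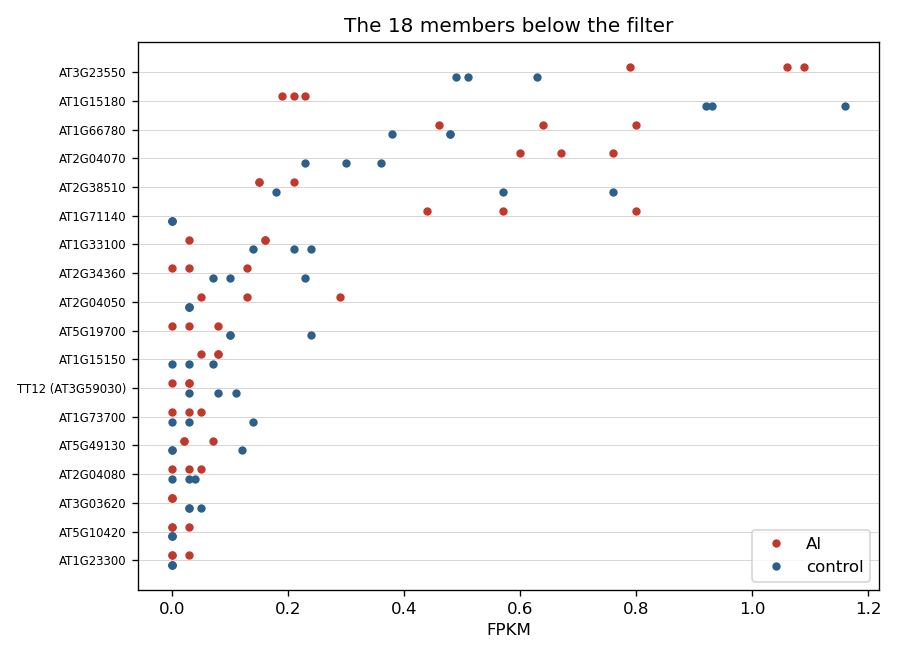
FPKM (linear axis) of the 18 members below the filter in each sample, 3 Al samples (red) above 3 control samples (blue) on each line. AT1G71140 was listed at 0 in the control samples and had 0.44 to 0.80 FPKM in the Al samples, and AT1G15180 had 0.19 to 0.23 FPKM in the Al samples and 0.92 to 1.16 FPKM in the control samples.

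Calls were compared between close copies within the family. Among the 20 pairs of members whose proteins are over 80% identical, both members were tested in 7 pairs. In 2 pairs the calls were opposite, in 4 pairs 1 member was called, in 1 pair neither was called, and in 0 pairs were both called in the same direction. Over all genes tested, 21.3% were higher and 38.5% lower, and AT1G33110 stands in more than 1 pair, so these few counts are a description. They also depend on the filter. In the fit without it, DTX1 and AT2G04070 were both called higher, as were ALF5 and AT3G23550, and the calls of AT1G15170 and AT1G15180 were opposite. The pairs shown here were picked after their values were seen, so the ratios are a description.

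In the tandem array on chromosome 1 that runs from AT1G33080 to AT1G33110, the outer members encode proteins that are 83.2% identical. AT1G33080 had 3.89, 3.76 and 3.75 FPKM in Al samples and 7.85, 6.10 and 7.73 FPKM in control samples. AT1G33110 had 12.5, 12.2 and 11.6 FPKM in Al samples and 6.88, 6.94 and 6.84 FPKM in control samples. Their levels were about equal in control samples, and the ratio of AT1G33080 to AT1G33110 was 0.308 to 0.324 in Al samples, against 0.879 to 1.14 in control samples. Of the copies between them, AT1G33090 was not called and AT1G33100 had at most 0.24 FPKM.

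AT1G11670 and AT1G61890 lie apart on chromosome 1 and are 83.7% identical. AT1G11670 had 60.1, 53.6 and 53.9 FPKM in Al samples and 89.8, 89.9 and 80.3 FPKM in control samples. AT1G61890 had 46.6, 39.5 and 32.4 FPKM in Al samples and 23.8, 23.5 and 24.98 FPKM in control samples. Their ratio was 1.29 to 1.67 in Al samples, against 3.22 to 3.83 in control samples, so the higher copy stayed the higher one while the gap narrowed.

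The array of 4 genes around AT1G15170 spanned a wide range of levels. AT1G15180, whose protein is 89.6% identical to that of AT1G15170, was the member of the array that fell, and the ratio of AT1G15170 to AT1G15180 was 244 to 278 in Al samples, against 22.1 to 25.6 in control samples. The middle copy AT1G15160 had 1.45 to 1.69 FPKM in Al samples and 1.33 to 2.11 FPKM in control samples and was not called. AT1G15150 had at most 0.08 FPKM. At such identity some fragments may have been counted for the wrong copy. Of the 50-base stretches of AT1G15180, 6.9% are also found in other genes, with AT1G15170 sharing the most.

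EDS5 and AT2G21340 are each the closest member to the other, at 59.1% identity. The ratio of EDS5 to AT2G21340 was 2.13 to 3.32 in Al samples, against 0.506 to 0.817 in control samples, so EDS5 was the higher one after Al and the lower one without it. In the pair AT4G21903 and AT4G21910, which are neighbours on chromosome 4, the ratio was 1.03 to 1.20 in Al samples, against 0.465 to 0.581 in control samples.

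**Figure D4:**
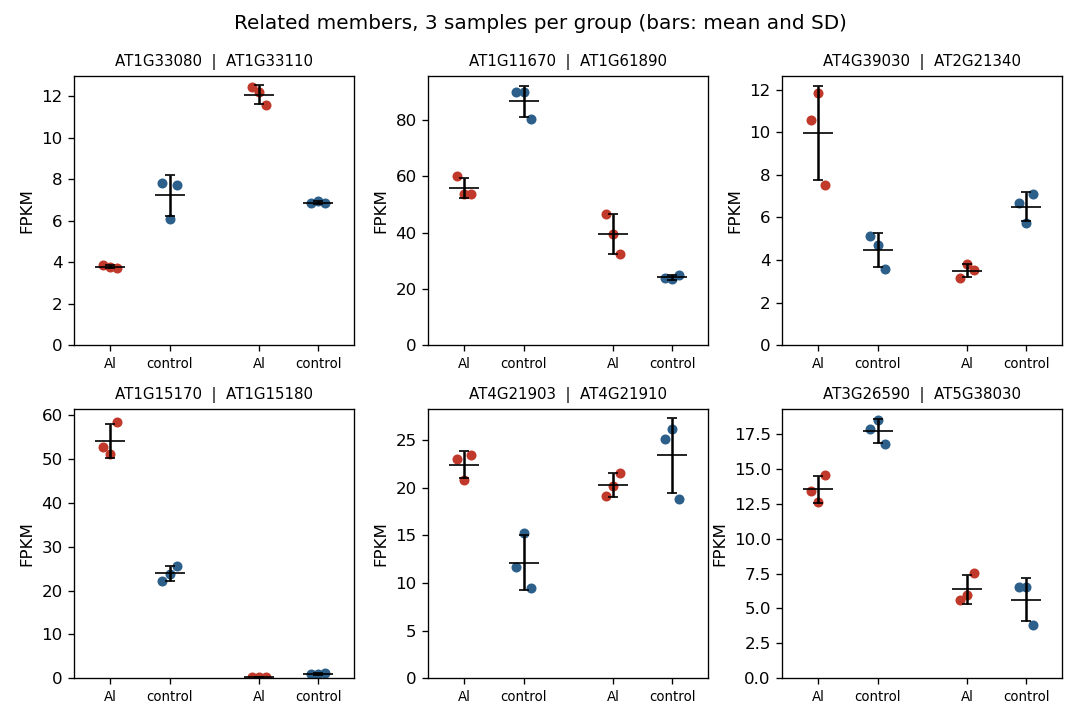
FPKM of 6 pairs of related members in each sample, with the first gene of each title on the left of its panel, Al (red) left of control (blue), and horizontal lines with bars for the mean and SD of 3 samples. AT1G33080 fell to 3.75 to 3.89 FPKM in Al samples, against 6.10 to 7.85 FPKM in control samples, while AT1G33110 rose to 11.6 to 12.5 FPKM in Al samples, against 6.84 to 6.94 FPKM in control samples.

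The array of DTX1 on chromosome 2 holds 6 genes, from AT2G04040 to AT2G04100. DTX1 was called higher, AT2G04090 and AT2G04100 were not called, and AT2G04050, AT2G04070 and AT2G04080 were below the filter. The proteins of AT2G04090 and AT2G04100 are 90.1% identical, and the log2 fold change was -0.25 for AT2G04090 and 0.14 for AT2G04100. In the array of ALF5 and AT3G23550, the samples of the 2 genes moved the same way, as given above. AT1G66760 was called higher, and its neighbour AT1G66780 had 0.46 to 0.80 FPKM in Al samples and 0.38 to 0.48 FPKM in control samples.

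The gene structures divide the family into 3 groups that the list of loci did not use. Over all genes tested, 21.3% were higher and 38.5% lower, and the groups were small, so their counts are a description. The 4 members with 12 to 14 exons are FRD3, AT2G38330, EDS5 and AT2G21340, all of which were tested and called, with EDS5 higher and the other 3 lower. Of 40 members with 6 to 9 exons, 25 were tested, of which 11 were higher and 4 were lower. Of 9 members with 1 or 2 exons, 6 were tested, with AT4G23030 and DTX50 higher and ZF14 lower. The median log2 fold changes of the tested members were -0.70 with 12 to 14 exons, 0.18 with 6 to 9 exons and -0.11 with 1 or 2 exons.

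The W-box core TTGAC was found in the 300 bases before 26 of the 53 members (49.1%), against 50.4% of 27443 such stretches in the genome. It was found before 10 of the 14 members that rose, 4 of the 8 that fell and 5 of the 13 that were not called. The G-box CACGTG was found before 5 members (9.43%, against 7.09% of all genes). CGCGT, the core that CAMTA transcription factors bind, was found before 2 members (3.77%, against 7.89% of all genes), and before none of the members that rose or fell.

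Other families that carry organic compounds across membranes were set beside the MATE family by their counts, against 21.3% higher, 38.5% lower and a median of -0.13 over all genes tested. Of 15 full-size ABCG transporters 9 were tested, of which 1 was higher and 6 were lower, with a median log2 fold change of -0.52. The gene that rose was PEN3 (0.88), a plasma membrane transporter of defense compounds. Of 15 ABCC transporters, which move conjugates into the vacuole, 12 were tested, of which 4 were higher and 6 were lower, with a median of -0.31. The difference between the families was not tested.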

How the data were processed

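The authors deposited FPKM values (fragments scaled to transcript length and library depth) for 24379 genes in 6 samples of root tips, 3 with Al and 3 controls, with gene annotations. The deposited table also holds the authors' log2 ratio, p-value and q-value of Al against control, and 6 per-sample columns that repeat the FPKM values exactly. None of these were used. The aligner, the counting tool, its use of strand and the genome build are not given in the sources used here. Gene starts and ends equalled those of TAIR10.1 for 23857 of 24144 genes and for 52 of the 53 members, the exception being the end of AT4G22790. RefSeq coordinates, promoters and proteins of TAIR10.1 were used.

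Samples were grouped by their labels. R 4.3.3 and limma 3.58.1 were used to fit log2(FPKM + 1) with a trend of variance on mean and no block, over genes that reached 1 FPKM in 3 or more samples. Benjamini-Hochberg adjusted p-values under 0.05 were called. The step was tested on simulated data in which far fewer genes changed than were called here, so that test does not cover such a wide change. Depth came from the step of a single fragment in low values, and 86.4% to 89.0% of these were whole to within 0.15 of a fragment. The depth was chosen to make these values whole, so this share is no independent check of it. Protein identity, shared 50-base stretches and promoter motifs were computed with Python 3.11.15, numpy 2.4.6, pandas 2.3.3 and Biopython 1.88, and figures were drawn with matplotlib 3.10.9.

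The members, the lists and the motifs were chosen with earlier results of these data known. Values in every sample are given for members with an absolute log2 fold change of at least 1, for those with a known function and for the pairs, and the others are named with their fold change or range. Alternatives were a pseudocount of 0.1, no filter, 1 FPKM in every sample, a replicate block, 3 other scalings, no trend, a size limit, and each sample left out.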

Additional observations from a re-analysis of the deposited data

How the results depend on the processing

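Of the 22 called members, 19 passed limma's threshold in every alternative that tested them, and none changed sign. The exceptions were DTX50 (lost in 8 alternatives), AT1G12950 (5) and AT3G26590 (1). Of the 13 members that were not called, 8 passed in 1 or more alternatives, ADS1 in 5, AT1G33090 in 4, AT2G04090 and AT4G22790 in 3 each, AT1G47530, AT1G64820 and AT2G04100 in 2 each and AT4G21910 in 1. With no mean-variance trend 13 members were higher and 12 lower. With each sample left out in turn, 12 to 15 members were higher and 8 to 11 lower, and their median log2 fold change was 0.048 to 0.20. Over all genes these counts were 3421 to 4024 higher and 6235 to 6495 lower. The median of the members was 0.051 with no filter and 0.106 with 1 FPKM in every sample. It was 0.28 with median-ratio scaling, 0.108 with TPM scaling and 0.236 with quantile normalization. In the same order, the median of all genes was -0.064, -0.13, -1.26e-05, -0.197 and -0.105. The cause of these shifts was not tested. A size limit of 1 on the log2 scale left 3 members higher and 0 lower in limma on log2(FPKM + 1), where the lowest was -0.96. Over all genes it left 1190 higher and 531 lower. The member counts under this limit depend on the pseudocount, since with 0.1 FRD3 was at -1.23 and DTX1 at 1.22. Without control replicate 3, the log2 fold changes of 3 members that were not called reversed. Over the samples left out they ranged from -0.04 to 0.281 for AT5G38030, from -0.074 to 0.157 for AT5G17700 and from -0.014 to 0.128 for AT1G71870. With the replicate number as a block, 14 members were higher and 8 lower, the median was 0.17, 3648 of all genes were higher and 6319 lower, and no call of a member changed. The labels share replicate numbers between the groups, but same-numbered samples did not deviate together (correlations -0.251 to -0.037 across genes). Values under 0.1 FPKM correspond to a few fragments and limit what can be seen of the lowest members.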
